A study of Mus musculus with 2 samples.

Results

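Gene deserts of the mouse genome were examined for open chromatin in the urinary bladder: 4446 autosomal intergenic regions whose centres lay more than 100 kb from the transcription start site (TSS) of any annotated protein-coding gene. Peaks of both libraries that overlapped by at least 1 bp were joined, and a joined region counted as shared when it held peaks of both. Of 144484 joined regions 73164 were shared, and 71323 of these were autosomal. The gene desert regions made up 6.23% of the autosomal shared regions, the others being 15543 intergenic regions within 100 kb of a coding TSS, 25095 genic regions and 26239 promoter regions, within 1 kb of any annotated TSS. A region centred within 1 kb of the TSS of a noncoding gene, or inside such a gene, was therefore not a member.

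DNase-seq, which maps the places where DNase I cuts accessible chromatin, was done on urinary bladder of male mice aged 14 days. The mice were B6CASTF1/J, the first-generation cross of C57BL/6J and CAST/EiJ, so that 1 haplotype of each animal is not the strain of the reference genome mm10. Both libraries formed 1 group without a condition contrast: replicate 1 came from a male, by its label, and replicate 2 from 3 pooled males. The looser of both deposited peak lists held 139821 peaks in replicate 1 and 82225 in replicate 2. With 2 libraries no test was run, and values are given beside the spread between the replicates.

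Distal regulatory elements such as enhancers are bound by transcription factors, which leave the DNA accessible, and can act on promoters over long stretches of sequence by looping. Gene deserts are long stretches with no protein-coding gene, and those beside genes of developmental regulators are known to hold clusters of such elements. CTCF is a zinc finger protein that anchors chromatin loops, and AP-1 (FOS and JUN), TEAD, NFI and basic helix-loop-helix factors bind many tissue enhancers. Promoters of the tissue's own cell types carried shared peaks: those of 9 of 11 urothelial, 8 of 8 smooth muscle and 6 of 6 stromal marker genes did, Krt20 and Trp63 being the urothelial ones without. Shared promoter peaks were seen at 2 of 5 endothelial, 0 of 5 immune, 1 of 3 autosomal nerve and glia, 0 of 3 liver and 0 of 3 heart marker genes. Of all 20807 autosomal protein-coding genes, 67.5% had a shared promoter peak. Fewer cells of a type and less access per cell cannot be told apart in whole tissue.

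The sequences at the centres of the 4 strongest members in which every 32-base word occurs once in the genome show what these sites look like, 200 bases each on the plus strand of the RefSeq assembly GRCm38.p6, the build mm10. Capitals mark bases inside footprints, the short protected stretches that the authors called within accessible DNA, where footprints of both replicates overlapped.
Bbox1 member, chr2:110192351-110192550: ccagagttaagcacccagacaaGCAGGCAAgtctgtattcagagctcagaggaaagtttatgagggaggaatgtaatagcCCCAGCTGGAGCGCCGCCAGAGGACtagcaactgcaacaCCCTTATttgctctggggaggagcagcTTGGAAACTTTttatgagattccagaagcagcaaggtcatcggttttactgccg
Myt1l member, chr12:29291081-29291280: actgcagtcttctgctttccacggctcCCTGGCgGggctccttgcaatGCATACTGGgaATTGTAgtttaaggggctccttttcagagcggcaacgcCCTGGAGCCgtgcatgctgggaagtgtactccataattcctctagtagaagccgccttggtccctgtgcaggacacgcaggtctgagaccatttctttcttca
Tbl1xr1 member, chr3:21936081-21936280: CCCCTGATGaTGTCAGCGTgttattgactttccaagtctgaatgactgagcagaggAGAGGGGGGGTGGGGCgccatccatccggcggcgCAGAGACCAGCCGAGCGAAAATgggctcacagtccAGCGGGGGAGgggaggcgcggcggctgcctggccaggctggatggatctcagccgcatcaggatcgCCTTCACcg
Pgrmc2 member, chr3:41195471-41195670: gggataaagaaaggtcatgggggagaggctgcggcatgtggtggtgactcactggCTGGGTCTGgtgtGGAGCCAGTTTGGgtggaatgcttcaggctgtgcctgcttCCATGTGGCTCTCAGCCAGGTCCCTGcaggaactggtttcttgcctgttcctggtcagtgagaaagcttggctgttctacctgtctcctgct
In these windows the footprints lay in several short blocks, and G and C made up 50.5% of the bases in the Bbox1 member, 54.5% in the Myt1l member, 64.5% in the Tbl1xr1 member and 57% in the Pgrmc2 member.

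A second set shows motifs where they coincided with a footprint of both replicates, for the strongest member with each of AP-1, CTCF, TEAD and the full palindromic NFI site, in that order; capitals mark the motif match.
Atp23 member, chr10:126511611-126511810: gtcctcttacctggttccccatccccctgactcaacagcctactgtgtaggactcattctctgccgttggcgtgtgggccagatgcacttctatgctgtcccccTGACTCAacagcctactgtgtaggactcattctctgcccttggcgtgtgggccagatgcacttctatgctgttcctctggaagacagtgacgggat
Clvs1 member, chr4:9135881-9136080: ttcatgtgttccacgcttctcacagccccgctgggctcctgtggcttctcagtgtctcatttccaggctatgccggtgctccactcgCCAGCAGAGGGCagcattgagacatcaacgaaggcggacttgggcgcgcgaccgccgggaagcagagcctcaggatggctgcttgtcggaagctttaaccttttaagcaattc
Ddx18 member, chr1:122357111-122357310: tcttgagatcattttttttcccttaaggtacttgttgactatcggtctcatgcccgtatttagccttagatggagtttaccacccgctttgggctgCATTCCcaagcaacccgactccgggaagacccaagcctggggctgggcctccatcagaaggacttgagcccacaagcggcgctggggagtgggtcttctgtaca
Gm9747 member, chr1:81744671-81744870: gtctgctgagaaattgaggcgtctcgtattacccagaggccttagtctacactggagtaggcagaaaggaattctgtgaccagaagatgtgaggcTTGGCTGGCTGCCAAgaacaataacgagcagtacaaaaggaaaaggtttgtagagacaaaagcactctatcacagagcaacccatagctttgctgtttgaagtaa
The AP-1 window is repetitive within itself: a stretch of 81 bases recurs 77 bases further on with 79 identical bases, so that the motif occurs 2 times in it. The GRHL motif AACCGGTT was in 10 members (0.225%), against 0.264% of nearer intergenic regions and 0.216% of all autosomal shared regions. In windows 1 kb away from members and outside peaks its share was 0.0118%. None of the 10 members had it inside a footprint of both replicates, against 8 of 41 nearer intergenic regions with the motif.

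Gene desert regions were the weakest class of open chromatin by signal, the authors' own density value per peak. Their median signal was 0.732 in replicate 1 and 0.568 in replicate 2, against 1.22 and 0.895 in intergenic regions within 100 kb. Averaged over the replicates the members had 0.650 ± 0.116, nearer intergenic regions 1.06 ± 0.232, genic regions 0.952 ± 0.193 and promoter regions 1.97 ± 0.299 (SD, n = 2 each). On the log2 scale the members' median lay below that of nearer intergenic regions by a difference of -0.74 in replicate 1 and -0.66 in replicate 2, or -0.70 ± 0.06 (SD, n = 2), so the gap was larger than the spread between the replicates. Among the stronger 50% of each replicate's peaks the difference was only -0.25. The members ranged from 0.0677 to 13.1 in replicate 1 and from 0.0719 to 26.6 in replicate 2, with the middle 50% between 0.479 and 1.20 in replicate 1 and between 0.424 and 0.887 in replicate 2.

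**Figure D1:**
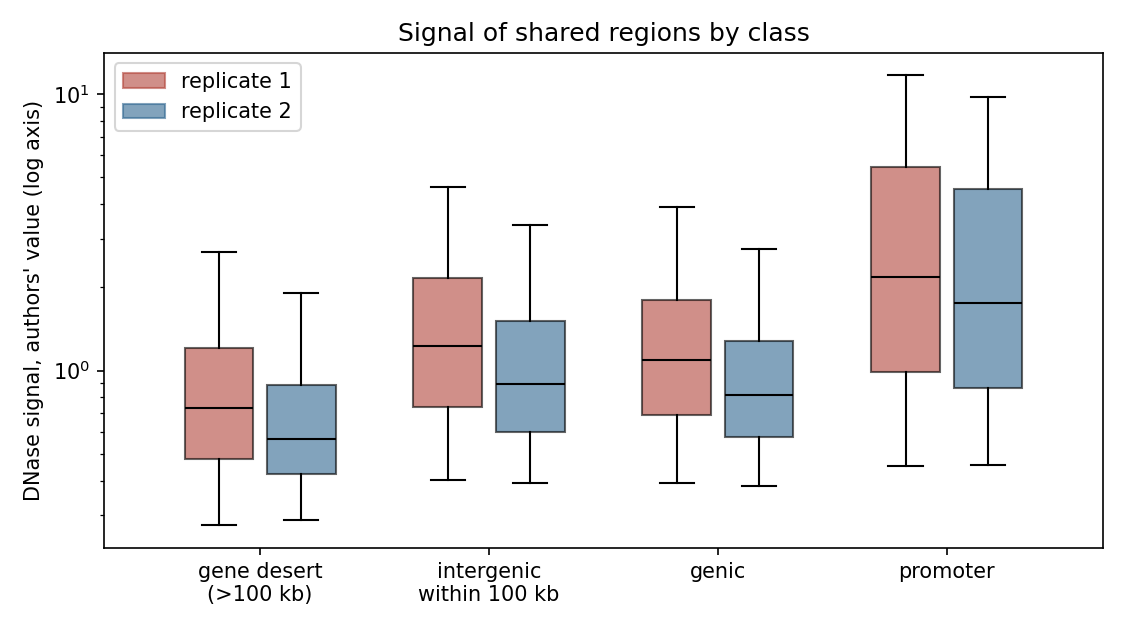
DNase signal (the authors' value per peak, log axis) of shared regions in 4 classes and 2 replicates; boxes span the middle 50%, the line is the median and whiskers run from the 5th to the 95th percentile. In both replicates the gene desert box lies lowest, with medians of 0.732 and 0.568, and the promoter box highest.

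Signal fell steadily with distance. In replicate 1 the median of intergenic regions was 1.49 up to 10 kb, 1.31 at 10 to 25 kb, 1.10 at 25 to 50 kb and 0.953 at 50 to 100 kb. Beyond the limit it was 0.802 in the 2843 members at 100 to 250 kb, 0.661 in the 1170 at 250 to 500 kb, 0.521 in the 371 at 500 to 1000 kb and 0.487 in the 62 beyond 1000 kb. Replicate 2 gave the same order, with 0.616, 0.520, 0.432 and 0.388 in the last 4 bins. There was no step at 100 kb. The 2 members just inside the limit, both 100.017 kb from a TSS, had 1.69 and 1.47 in replicates 1 and 2 near Ralgapa2, and 1.72 and 1.76 near Cd180. The 2 regions just outside it, at 99.998 kb from Speer3 and 99.98 kb from Cops8, had 0.437 and 0.336, and 0.599 and 0.696.

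**Figure D2:**
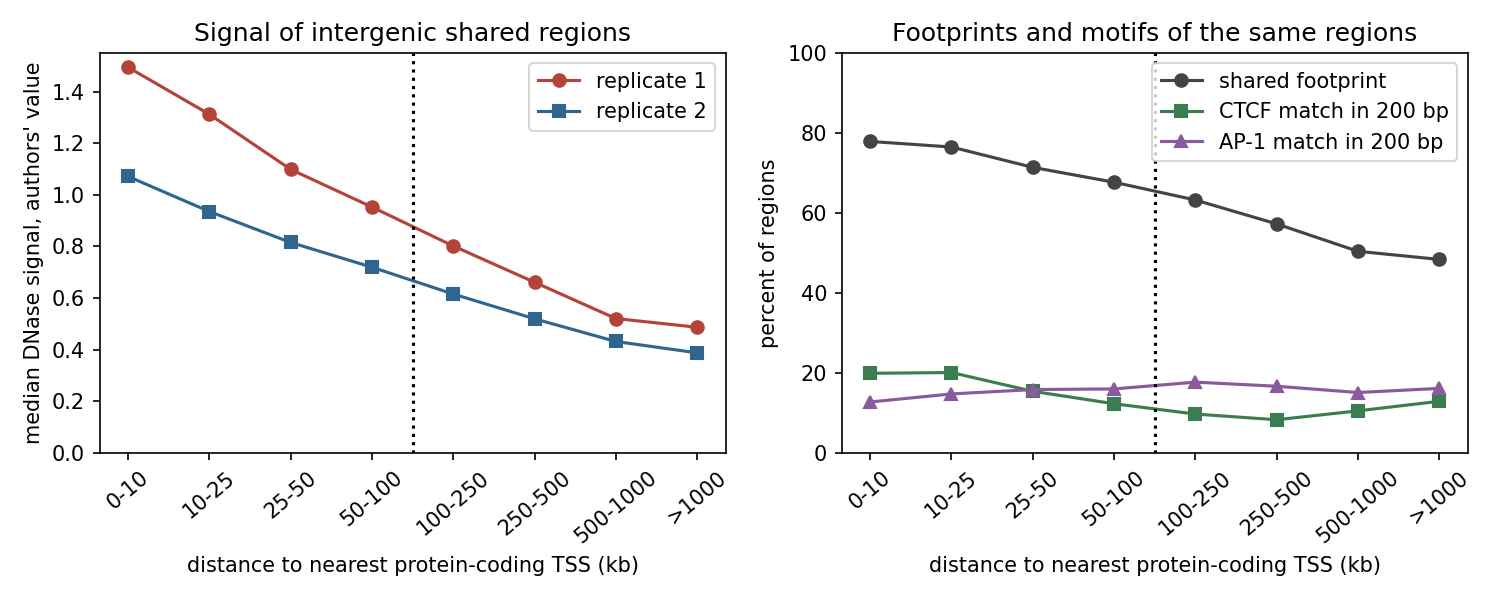
Left, median DNase signal (the authors' value) of intergenic shared regions by distance of the region centre to the nearest protein-coding TSS, for both replicates; right, percent of the same regions with a footprint of both replicates, a CTCF match or an AP-1 match; the dotted line marks 100 kb. Signal and footprint share decline from bin to bin, with no step at the line.

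Both replicates ranked the members alike. Over the 4446 members, which share libraries and annotation but not positions, Spearman's rho between the replicates' signals was 0.848, against 0.905 in nearer intergenic regions and 0.971 at promoters. The log2 ratio of replicate 1 to replicate 2 had a median of 0.30 and an SD of 0.47, and 4282 members (96.3%) lay within 2-fold of the median ratio. All signals were whole multiples of 1 step per library within 0.05 steps, and the median member was worth 140.5 steps in replicate 1 and 71 in the other. If a step is 1 cut, counting error alone gives a single member at those values an SD of 8.44% and 11.9%.

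**Figure D3:**
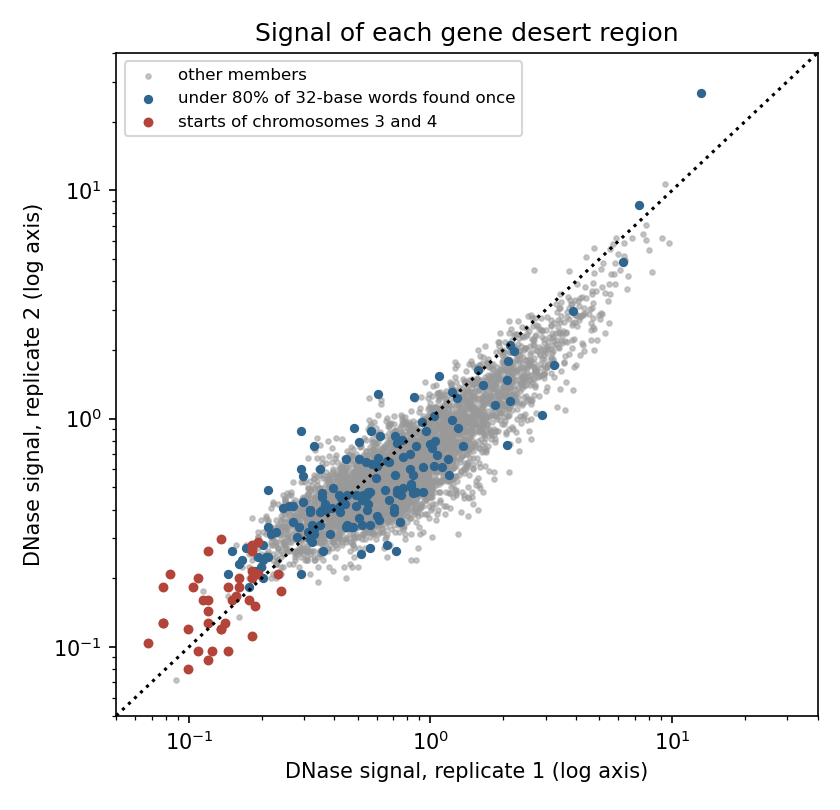
DNase signal (the authors' value) of each of the 4446 gene desert regions in replicate 1 (x axis) and replicate 2 (y axis), both log axes; the dotted line marks equal values. Most members lie along and slightly below the line, members at the starts of chromosomes 3 and 4 sit at the low end, and the member at 13.1 and 26.6 is one whose 32-base words are not found once.

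Overlap between the replicates was lower for peaks in gene deserts than for peaks closer to genes. Of 11103 gene desert peaks in replicate 1, 4514 (40.7%) overlapped a peak of replicate 2, against 51.4% of nearer intergenic and 70.3% of promoter peaks. Of 5527 in replicate 2, 4506 (81.5%) overlapped a peak of replicate 1, against 91.9% of nearer intergenic and 92.8% of promoter peaks. The overlap rose with strength: in the weakest 20% of gene desert peaks it was 8.33% in replicate 1 and 36.4% in replicate 2, and in the strongest 20% 92.5% and 99.6%. With equal numbers of strongest peaks per replicate the order of the replicates turned round, 82.3% of replicate 1 and 52.3% of replicate 2 overlapping. In both stricter peak lists 2174 members (48.9%) were present, against 64.7% of all autosomal shared regions. The lowest false discovery rate (FDR) the authors gave within a member had a median of 2.48e-07 in replicate 1 and 0.000518 in replicate 2.

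The strongest member of all came from a repeated sequence. It lay at chr3:5860361-5860530, 110 kb from Gm8797, and had 13.1 in replicate 1 and 26.6 in replicate 2, but none of its 32-base words (0%) was unique and the most frequent had 14 copies in the genome. The third strongest, chr1:102628161-102628320, between the contactin-associated protein gene Cntnap5b and the cadherin gene Cdh20, had 7.27 and 8.62, with 59.7% of its words found once. It was also one of the farthest from a coding TSS, at 2140 kb. Uniqueness of sequence did not mark the strong members in general: 91 of the 100 strongest members had every word found once and 4 had fewer than 80% of words found once, against 157 (3.53%) of all members and 3.49% of nearer intergenic regions. What part read placement has in the signal of the repeated members was not tested.

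Of the other 8 of the 10 strongest members, the one at chr10:126511601-126511820, 390 kb from Atp23, a mitochondrial metallopeptidase gene, had 9.32 and 10.7 in replicates 1 and 2, with 84.1% of its words unique. At chr1:122357121-122357300, 789 kb from the RNA helicase gene Ddx18, a member had 9.73 and 5.91, with 81.9% unique. The other 6 were unique throughout. The member at chr2:110192361-110192540 had 9.11 and 6.22 and lay 113 kb from Bbox1, which encodes the last enzyme of carnitine synthesis. That at chr12:29291001-29291360 had 7.78 and 7.03, 237 kb from Myt1l, a neuronal transcription factor gene whose own promoter peak had only 0.750 and 0.432. That at chr3:21936081-21936280 had 7.60 and 6.44, 140 kb from Tbl1xr1, a subunit of a nuclear receptor corepressor. Tbl1xr1's promoter peak, 6.83 and 6.16, was of like height. A member at chr3:41195481-41195660 had 7.79 and 6.04, 113 kb from Pgrmc2, a heme-binding membrane protein gene.

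The remaining pair lay beside a matrix gene and a microRNA gene. At chr10:97313041-97313240 a member had 6.86 and 6.20 in replicates 1 and 2, 166 kb from Dcn, which encodes the collagen-binding proteoglycan decorin and had a promoter peak of 1.11 and 0.879. The distal site was thus higher than the promoter in both replicates. At chr6:51270941-51271160 a member had 7.99 and 5.46 and lay 1.14 kb from the annotated start of Mir148a. That gene for a microRNA was the nearest annotated start of any kind for 14 members, 1.14 to 150 kb away, with a lowest, median and highest signal of 0.521, 2.40 and 7.99 in replicate 1 and 0.440, 1.51 and 5.89 in replicate 2. Of these, 12 held a footprint of both replicates.

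Distance from coding genes was not distance from all annotation. The members lay a median of 198 kb from the nearest coding TSS and 36.5 kb from the nearest TSS of any gene type, and 750 (16.9%) were more than 100 kb from any TSS. The nearest TSS belonged to a lincRNA gene, a long noncoding transcript between genes, for 1674 members (37.7%) and to a pseudogene for 1434 (32.3%). It belonged to a microRNA gene for 243. Of these, 17, 14 and 8 were nearest to Gm27878, Gm28002 and Gm27460 and very weak, with medians of 0.177, 0.128 and 0.109 in replicate 1. Shares of these gene types were not taken over other regions. The next shared region of any class was a median of 13.9 kb away, against 4.48 kb for nearer intergenic regions, and 537 members (12.1%) had none within 100 kb, against 0.811%.

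The 5 members farthest from a coding TSS were modest except the one between Cntnap5b and Cdh20. The farthest, on chromosome 18 at 2195 kb from Pik3c3, a phosphatidylinositol kinase gene, had 0.864 in replicate 1 and 0.855 in replicate 2. It held 3 overlapping pairs of footprints of both replicates. At 1962 kb and 1824 kb from the protocadherin gene Pcdh20, members had 0.755 and 0.376, and 0.729 and 0.472. The nearer of them lay wholly in soft-masked repeat sequence, with 18.3% of its words found once. At 1816 kb from the zinc transporter gene Slc39a10, a member had 0.521 and 0.440, with 53.3% of its words found once.

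Gene deserts covered 628 Mb, or 26.2% of the sequenced autosomes, at 7.08 members per Mb, against 27.2 shared regions per Mb in the nearer intergenic 571 Mb. Chromosome 13 had the highest density, 11.4 per Mb, and chromosome 19 the lowest, 5.31 per Mb. Members were spread over 1023 gaps between neighbouring coding genes or between a gene and a chromosome end, of which 298 held 1 member and 110 held 10 or more, with 1626 members (36.6%). Of 1549 gaps between coding genes that held any sequence beyond 100 kb, 535 (34.5%) had no member. Of those without a member, the one with most sequence beyond 100 kb, 2.56 Mb, was the gap of 3152 kb between Cdh2, the N-cadherin gene, and the desmocollin gene Dsc3. Both of these genes had a shared promoter peak.

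Member density went with open promoters at the flanks. A promoter counted as open where a shared region lay within 1 kb of a TSS of the gene, as at 67.5% of all autosomal coding genes. Gaps with no open flanking gene held 3.05 members per Mb of desert sequence, gaps with 1 held 5.59 and gaps with both held 8.39. The nearest coding gene was open for 3712 members (83.5%), against 81.3% of nearer intergenic regions. Of the 1400 genes nearest to any member 1126 (80.4%) were open, and of the 65 nearest to 10 or more members 56 were (86.2%). Regions and promoters were called in the same libraries.

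The 10 fullest gaps between coding genes held 269 members (6.05%). The fullest, 905 kb between Med13l, a subunit gene of the Mediator kinase module, and the T-box factor gene Tbx3, held 43 members. Their lowest, median and highest signals were 0.432, 0.906 and 5.75 in replicate 1 and 0.392, 0.648 and 4.32 in replicate 2. Of the 43, 30 were nearest to Med13l and 13 to Tbx3. Tbx3 had a high promoter peak of 8.67 and 8.05, and Med13l one of 2.55 and 3.40. The gap between the anion exchanger gene Slc4a3 and the ephrin receptor gene Epha4 held 35 members with medians of 0.635 and 0.512. That between the neuropeptide gene Npvf and the bZIP factor gene Nfe2l3 held 27 with 1.11 and 1.02, the Mir148a members among them.

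The gap before Tbl1xr1, beginning at the angiotensin receptor gene Agtr1b, held 26 members with medians of 0.851 and 0.552, and 22 were nearest to Tbl1xr1. Between Kif2a, a kinesin gene, and Ndufaf2, an assembly factor gene of respiratory complex I, 25 members had 0.937 and 0.799. Another 25 followed Klf4, a zinc finger factor gene of epithelia with a promoter peak of 7.95 and 6.995, up to the actin-like gene Actl7b, with medians of 0.869 and 0.807. The shortest of these gaps, 452 kb from the RabGAP gene Tbc1d1 to the zinc finger factor gene Klf3, held 23 with 1.41 and 0.863. Between the bZIP factor gene Maf and the dynein light chain gene Dynlrb2 23 members had 0.880 and 0.680. Between the stem cell transcription factor gene Sox2 and the flippase gene Atp11b 21 had 0.807 and 0.568. The 21 between Zfp608 and Gramd3 had 0.573 and 0.440. The medians of these 10 gaps thus ran from 0.573 to 1.41 in replicate 1 and from 0.440 to 1.02 in replicate 2, and differences between gaps were not tested. A gap denser than these 10, named after its values were seen, was that between Rad51b, a DNA repair gene, and Zfp36l1, which encodes a protein that binds AU-rich RNA. It held 18 members in 293 kb, with medians of 2.05 and 1.75. That is 6.14 per 100 kb of the whole gap, not of desert sequence as in the densities per Mb.

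**Figure D4:**
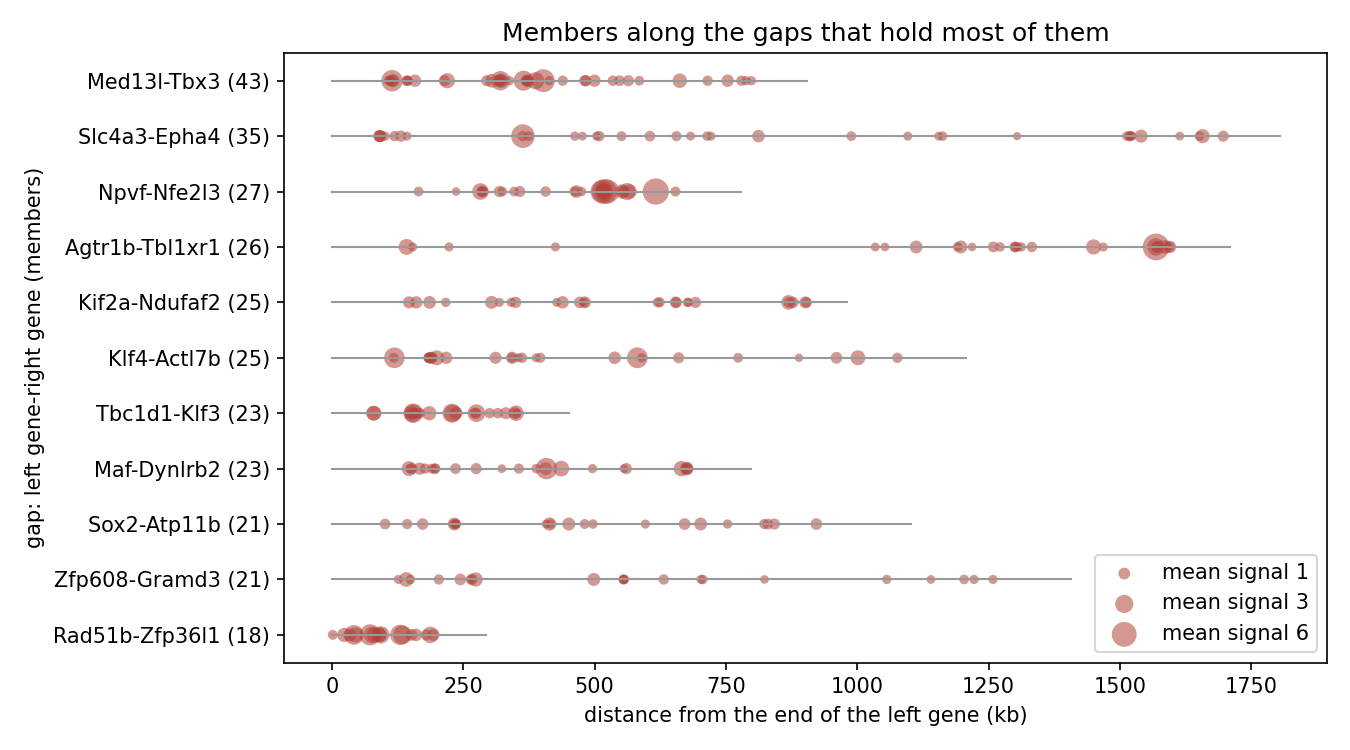
Position of each member, in kb from the end of the left gene, in the 10 gaps between coding genes with most members. The last row shows the Rad51b-Zfp36l1 gap. Circle area grows with the member's mean signal over both replicates, the grey line is the gap, and the number of members is in brackets. The 43 members of the Med13l-Tbx3 gap extend over much of the sequence, in part in tight groups. The strongest member of the Agtr1b-Tbl1xr1 gap also lies in a tight group, near Tbl1xr1, and that of the Npvf-Nfe2l3 gap stands alone.

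A tight group of very weak members sat at the first sequenced bases of 2 chromosomes. On chromosome 3, 22 members lay within 25.8 kb, from chr3:3000042 on, where the sequenced part begins at 3000001. Their signals were 0.0677 to 0.182 in replicate 1 and 0.0799 to 0.272 in replicate 2, and 1 of 22 held a footprint of both. On chromosome 4, 17 members within 16.4 kb had 0.120 to 0.239 and 0.144 to 0.296, and 0 of 17 held one. They were all the members nearest to the nuclear receptor gene Hnf4g, with 22, and to the vomeronasal receptor gene Vmn1r2, with 17. In all, 77 members had under 0.25 in both replicates, 33 of them here. How these peaks arose was not tested.

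Genes of developmental transcription factors flanked many members. Of 215 such genes on the list, which was drawn up from general knowledge, 92 were the nearest coding gene of 421 members (9.47%), against 2.94% of nearer intergenic regions, while the list makes up 1.03% of coding genes. As a flanking gene on either side a gene of this list stood beside 851 members (19.1%), against 6.00% of nearer intergenic regions. Genes of the list also flanked 10.9% of all gaps between coding genes that held sequence beyond 100 kb. Gaps with one held 12.1 members per Mb of desert sequence, against 7.01 in all gaps between coding genes. Members near these genes had median signals of 0.750 and 0.560, close to the 0.732 and 0.568 of all members. Maf was nearest to 24 members, Klf4 and Meis1, a TALE homeobox gene, to 19 each, Nr2f2, the COUP-TFII nuclear receptor gene, to 17, Sox9 to 14 and Tbx3 to 13. The 14 near Sox9 had the highest median of these 6 in replicate 1, with 1.19 and 0.755, and the 19 near Klf4 that in replicate 2, with 0.828 and 0.815. Nr2f2 alone of the 6 had no open promoter, its nearest shared region, 7.41 and 6.51, starting 1.07 kb from a TSS.

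Secreted signals and their antagonists were nearest to 124 members (2.79%), against 1.39% of nearer intergenic regions. The gaps they flanked held 219 members, or 11.3 per Mb of desert sequence. Inhba, which encodes an activin subunit, had 12, Fgf9 11, Bmp2 and Igfbp3 10 each, the Notch ligand gene Jag1 9 and Bmp7 8. The 8 near Bmp7 were strong, with medians of 2.11 and 1.59. Genes of synaptic and neuronal adhesion showed the opposite density. They were nearest to 128 members (2.88%), against 0.392%. The gaps they flanked held 338 members, but over 156 Mb of desert sequence, or only 2.16 per Mb. Adgrl2, a latrophilin gene, and Flrt2 had 10 each, the axon guidance receptor gene Robo2 6, and Tenm4, Erbb4 and Epha7 5 each. The 10 near Flrt2 had medians of 0.349 and 0.348.

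Among genes of the bladder's own cell types, stroma genes were nearest to 62 members, urothelial genes to 17 and smooth muscle genes to 6. The 17 of the urothelial list (0.382%, against 0.624% of nearer intergenic regions) belonged to 4 transcription factor genes. The gaps flanked by genes of this list held 29 members, or 10.97 per Mb over 2.64 Mb of desert sequence. Gata3 had 10, from 172 to 1144 kb away, the strongest with 4.73 and 3.20 in replicates 1 and 2 at the far end. Klf5 had 5, the range being 0.552 to 1.14 for replicate 1 and 0.368 to 0.855 for replicate 2. Grhl2, a factor gene of epithelial junctions, had 1, but a strong one: 6.08 and 4.50 at chr15:37120541-37120740, 112 kb away, with the TEAD motif in a footprint of both replicates. Trp63, the p63 gene of basal epithelial cells, had 1 with 0.828 and 0.512. Of the 6 members of the smooth muscle list (0.135%, against 0.174% of nearer intergenic regions), 4 were near Myocd, the SRF coactivator gene, with medians of 0.838 and 0.711, and 2 near the integrin gene Itga8. The gaps flanked by genes of this list held 7 members, or 19.3 per Mb, over only 0.362 Mb.

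The 62 members of the fibroblast and stroma list were 1.39%, against 0.875% of nearer intergenic regions. The gaps flanked by genes of this list held 134 members, or 22.7 per Mb over 5.89 Mb. Of the 34 genes on it, 15 were nearest to a member. Gas1 had 11, Dcn 10 with medians of 1.63 and 0.871, and the chemokine gene Cxcl12, Thbs2, Fn1 and Tnc, the last 3 genes of matrix proteins, 5 each. Chemosensory and defence genes had 35 (0.787%), against 0.894%. Of these Vmn1r2 had the 17 above, the taste receptor gene Tas2r119 5, Olfr161 4, Olfr1505 3, and Vmn1r238 and Olfr721-ps1 2 each. None of these 6 had an open promoter, and only 13 of all 1571 genes of this list did. The 2 near Vmn1r238 were strong, with medians of 5.06 and 3.90.

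Footprints of both replicates that overlapped by at least 1 bp were found in 2685 members (60.4%), against 74.0% of nearer intergenic regions, and 71.3% of all autosomal shared regions. In single replicates 92.3% of members had a footprint in replicate 1 and 80.2% in replicate 2, a mean of 86.3 ± 8.59% (SD, n = 2), against 92.3 ± 5.42% in nearer intergenic regions. Within each replicate the members' share was lower, by a difference of -3.78 percentage points in replicate 1 and -8.26 in replicate 2, or -6.02 ± 3.17 (SD, n = 2), a gap larger than its spread between the replicates. Footprint calls went with signal, and at like signal the order turned. In 4 equal groups of the members by mean rank, weakest first, shared footprints were in 20.9%, 48.5%, 78.2% and 94.0% of members. In nearer intergenic regions of the same rank ranges they were in 18.8%, 43.4%, 69.5% and 93.2%. Shared footprints were counted as overlapping pairs of a footprint of each replicate, so a footprint that overlapped several of the other replicate counted for each. Counted so, the members held 4856, and 551 members (12.4%) had 3 or more. A shared footprint lay a median of 25 bp from the region's centre.

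For 41 motifs, each written as a consensus, either strand of the central 200 bp was searched, and a match is no proof of binding. The commonest in members was the short NFI motif TTGGCA, in 22.2%, against 17.0% of nearer intergenic regions and 10.7% of windows 1 kb away from members and outside peaks. The E-box CAGCTG was in 21.8%, against 20.2% and 7.73%. AP-1, TGANTCA, was in 764 members (17.2%, 95% Wilson interval 16.1 to 18.3%), against 14.7% and 5.98%, and 11.6% of all autosomal shared regions. TEAD, GGAATG, was in 15.7%, against 13.9% and 10.7%, and TFAP2, GCCNNNGGC, in 8.37%, against 10.1% and 2.71%. The full NFI motif overlaps the short one in part, and each was counted on its own. Among the matches rarer at members than 1 kb away were those of the homeobox motif TAATTA, 2.59% against 6.86%, the GATA factor motif AGATAA, 9.90% against 13.0%, and the forkhead motif TNTTTAC, 10.5% against 13.1%. The windows 1 kb away had a median of 43% G and C, against 50.6% in the members themselves.

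Of the 41 motifs CTCF was the one whose share differed most, in percentage points, between gene desert regions and nearer intergenic ones. It was in 420 members (9.45%, 95% Wilson interval 8.62 to 10.3%), against 17.4% of nearer intergenic regions, 0.698% of windows 1 kb away and 10.9% of all autosomal shared regions. Members with it had median signals of 1.06 in replicate 1 and 0.711 in replicate 2, against 0.732 and 0.568 over all members. In the 4 signal groups above, weakest first, it was in 4.50%, 7.65%, 9.90% and 15.7% of members, and in 6.17%, 7.32%, 11.9% and 24.7% of nearer intergenic regions. The shares lay farthest apart in the strongest group, in which nearer intergenic regions were also stronger, with medians of 2.11 and 1.48 against the members' 1.80 and 1.26. The CTCF share was 19.9% in intergenic regions up to 10 kb from a coding TSS and 8.29% at 250 to 500 kb, and it was 12.9% in the 62 members beyond 1000 kb.

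**Figure D5:**
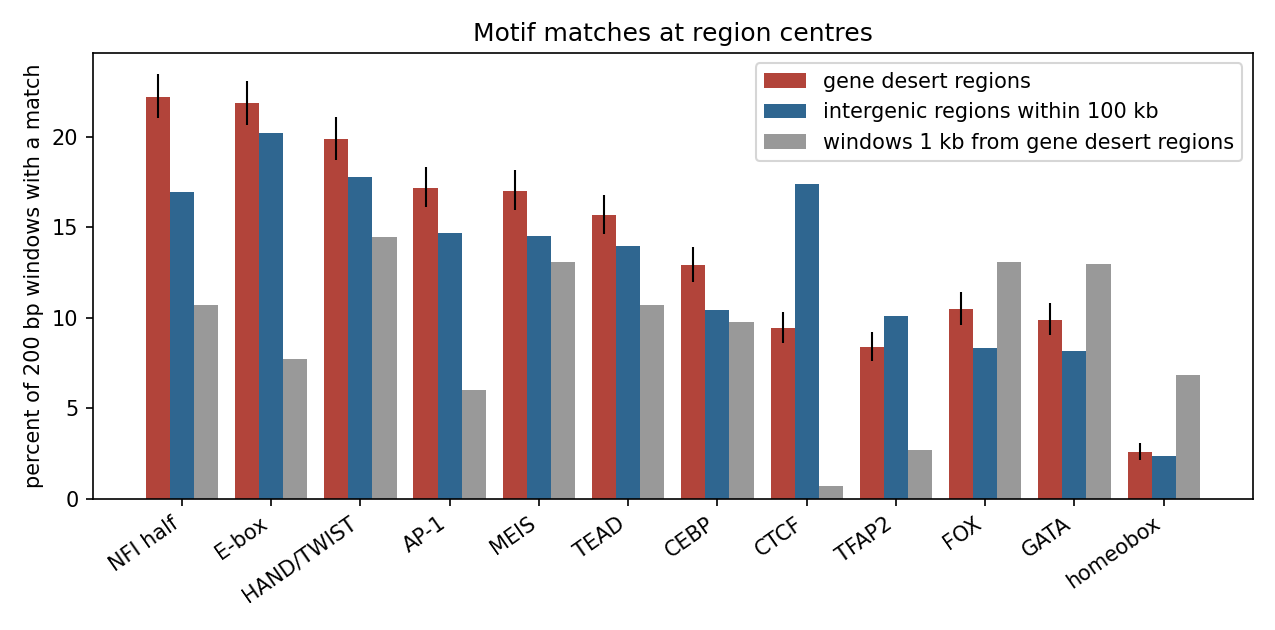
Percent of 200 bp windows with a match to 12 of the 41 motifs in gene desert regions (bars with 95% Wilson intervals, counting error only), intergenic regions within 100 kb and windows 1 kb from gene desert regions. CTCF stands at 9.45% in gene desert regions and at 17.4% in nearer ones, and the homeobox, GATA and FOX matches are more frequent 1 kb away than at the members.

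Motifs differed in how often they lay inside a footprint. Of the 420 members with CTCF, 374 (89.0%) had the centre of a match in a footprint of replicate 1, 283 (67.4%) in one of replicate 2 and 273 (65%) in one of both, against 93.5%, 83.5% and 82.6% of nearer intergenic regions with CTCF. AP-1 matches, although more numerous, were in a footprint of both replicates in 38 of 764 members (4.97%), against 5.70% of nearer intergenic regions with AP-1. For TEAD it was 45 of 696 (6.47%), for the E-box 141 of 971 (14.5%) and for the short NFI motif 192 of 987 (19.5%). The full NFI motif was in 10 members, of which 5 had it in a footprint of both. AP-1 matches lay a median of 36.5 bp from the centre and CTCF matches 10 bp. The strongest members with a match in a shared footprint, other than those shown above, were one near the phospholipid flippase gene Atp10a for AP-1, with 5.87 and 6.18, one near Noct, a circadian phosphatase gene, for CTCF, with 5.71 and 5.84, the Grhl2 member for TEAD and one near Igfbp3 for the full NFI motif, with 2.61 and 0.815. Among all shared footprints in members, counted as pairs, 20.5% held any of the 41 motifs.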

How the data were processed

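The 2 deposited peak lists, the footprint list and FDR track of each library were used, each made from 1 library on mm10, per the labels and the file headers; names of aligner and callers were not given in the sources used here. Each peak's deposited value is the authors' signal, a density per peak whose normalization is likewise not given. The deposited FDR track gives the authors' FDR, a q-value, for stretches at 0.05 or lower. The deposited footprints carry the same value, 0.01, throughout and were used as positions. A region's signal was the highest of its peaks in that replicate. Genes and TSSs of all their transcripts came from GENCODE M21, sequence from RefSeq GRCm38.p6. Scripts ran in Python 3.11.15 with numpy, pandas and matplotlib, and their overlap, distance, motif and footprint steps were tested on simulated data.

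Named are the 10 strongest members by mean rank, the 10 fullest gaps, the 5 farthest members, up to 6 nearest genes per list, the 2 strongest members per motif in shared footprints, and 2 regions on each side of the limit. Members, motifs and gene lists were chosen with earlier results of these data known. Alternatives were other peak lists, limits of 50 and 250 kb, TSSs of any gene type, 1 replicate alone, wider promoters of 2500 bp, 100 bp windows and unique sequence.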

Additional observations from a re-analysis of the deposited data

How the results depend on the processing

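The stricter peak lists left 2173 gene desert regions, with a log2 signal difference from nearer intergenic regions of -0.61, footprints in 96.5% (mean over replicates), CTCF in 12.7%, an open nearest promoter for 80.6%, and replicate overlaps of 93.7% (replicate 2 in replicate 1) and 43.4% (replicate 1 in replicate 2). The stronger 50% of peaks left 1096, with -0.25, 98.7%, 14.96% and 77.7%. In these settings, and with 1 replicate alone, open promoters were called anew from the regions of that setting. Their open shares therefore mix a change of members with a change of the promoters called open. A limit of 50 kb gave 7497 regions, -0.64, CTCF in 10.6% and developmental factor genes at the flank of 15.4%; one of 250 kb gave 1603, -0.82 and 23.6%. TSSs of any gene type left 750 regions, -0.79, 81.2% open and 20.8% flanked. Equal numbers of strongest peaks gave overlaps of 52.3% (replicate 2 in replicate 1) and 82.3% (replicate 1 in replicate 2), and an overlap of 50% of the shorter peak 79.8% for replicate 2 in replicate 1. Windows of 100 bp, with fewer bases than those of 200 bp, held AP-1 in 10.3% and CTCF in 8.66%. Promoters of 2500 bp gave 85.5% open. With the peaks of replicate 2 alone and of replicate 1 alone, in that order, there were 5501 and 11067 regions, footprints in 70.0% and 74.96%, AP-1 in 14.997% and 15.3%, CTCF in 7.94% and 6.63%, open promoters for 83.0% and 85.5%, and developmental flanks for 17.7% and 18.4%. Other causes were not tested. The signal difference from nearer intergenic regions was negative in each setting for which it was computed (other peak lists, distance limits, TSSs of any gene type, single replicates, scaled signal, unique sequence and members between coding genes), and leaving out regions of repeated sequence, or (chosen after seeing the data) the 59 members beyond the outermost coding gene, kept signal, footprints and motifs within the replicate spread or interval. No paired analysis was possible because there was 1 group. Depth was not varied, and its part in the calls of weak members was not tested.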
